A study of Mus musculus with 24 samples.

Results

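The 7 solute carrier families that carry most amino acids across cell membranes (Slc1a, Slc3a, Slc6a, Slc7a, Slc36a, Slc38a and Slc43a) were followed in mouse kidney after ischemia. Members are every protein-coding gene of the table whose symbol begins with a family prefix followed by a digit, a rule on names that uses no measured value; the families themselves were chosen with earlier results of these data known. The rule found 63 genes of the 40750 in the table, 21832 of which are protein coding: 20 of family 6, 16 of family 7, 11 of family 38, 7 of family 1, 4 of family 36, 3 of family 43 and 2 of family 3. Of the 63, 37 reached 1 RPKM (reads per kilobase of gene, scaled to library size) in at least 3 of the 24 libraries and were tested, and 26 did not. The prefix also takes in Slc7a6os, which encodes no transporter and lies opposite Slc7a6, and several Slc6 carriers whose substrate is taurine, creatine or a neurotransmitter.

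The kidneys came from 12 male mice of 8 to 10 weeks on a mixed background, and every group, sham included, carried Kim1-GCE+/- and EGFPL10a+/-. Kim1-GCE places a tamoxifen-inducible Cre under the control of Havcr1 (KIM-1), a gene switched on in injured proximal tubule. Cre releases the ribosomal tag EGFPL10a in those cells, so that anti-GFP beads recover their ribosome-bound RNA (translating ribosome affinity purification). Tamoxifen was given 6 h before and 24 h after surgery, per the series' design text. In 9 mice both renal pedicles were clamped for 20 minutes, and kidneys were taken at day 2, day 7 or day 14, with 3 mice a time. The other 3 mice had sham surgery, the same procedure with no clamp, and the labels give no day for them. Each mouse gave a bound library (RNA on the beads) and an unbound library, which stands for the whole kidney, so there are 8 groups of 3 libraries.

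Havcr1 itself was at 1.51, 1.49 and 5.61 RPKM in sham bound RNA and at 50.5, 113 and 211 RPKM at day 2. With so little of the gene that drives the tag in sham kidney, which cells the sham bound RNA comes from was not tested. In the sham bound libraries the 9 proximal tubule markers summed to 860 to 1111 RPKM, against 2096 to 2182 RPKM in sham unbound RNA. Slc34a1 was a large part of these sums, at 605, 528 and 538 RPKM bound and 1295, 1256 and 1466 RPKM unbound. In sham bound RNA 6 of the 9 were lower. All 4 podocyte markers and 3 of 5 principal cell markers were higher there. The third day 14 mouse stood apart: its bound library correlated at r = 0.901 with the mean of the other 2, which correlated at 0.975 with each other, and its unbound library at 0.941 against 0.98. Its summed macrophage markers were 1659 RPKM bound and 1692 RPKM unbound, with 98.8 to 144 and 289 to 348 RPKM in the other 2 mice. Aqp2, a principal cell gene, was at 350.1 RPKM in the third sham bound library and 348 RPKM in the third day 2 bound library, and no other bound library exceeded 114 RPKM. The depth inferred from low values was such that 1 RPKM on a gene of 1 kb stood for 15.7 to 24.7 reads, depending on the library.

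In the proximal tubule, filtered amino acids enter the cell through apical carriers driven by sodium or by exchange and leave through basolateral carriers. Several of these are heteromers, in which a light chain of family 7 does the transport and a heavy chain of family 3 (Slc3a1, rBAT, at the apical side and Slc3a2, 4F2hc, at the basolateral side) brings it to the membrane. Other members, such as Slc38a2, Slc7a5 and Slc7a1, feed growing or stressed cells in most tissues, and the transcription factor ATF4 raises several of them when amino acids are short.

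Promoter sequences are given for 3 members. RefSeq promoters of build GRCm38.p6 were matched for 45 of the 63 members. The 250 bases before each start were searched on both strands for 3 motifs. These were the ATF4 element TGATGNAA, the NRF2 element TGACNNNGC and GTTAAT, a partial HNF1 element that is not the whole HNF1 site. At least 1 start of 3, 7 and 5 of the 45 members held them (6.67%, 15.56% and 11.11%), as did 3.91%, 11.52% and 7.49% of all 27025 genes in the table. Counted by start, 3.45%, 10.16% and 6.43% of all 32851 promoters held them. The 3 windows below are shown for the motifs they hold. Those of Slc7a7 and Slc6a13, 2 members that fell at day 2, lie before an internal start and hold the partial HNF1 element. The other matched starts of these genes lacked it. That of Slc7a11, the cystine carrier known for ATF4 control, holds both copies of the ATF4 element. HNF1 factors are regulators of proximal tubule genes. Each window is written 5′ to 3′ on the gene's strand, with the matches in capitals.
Slc7a7 (chr14:54409473-54409722, minus strand; inside the gene and in no annotated exon, before an internal start): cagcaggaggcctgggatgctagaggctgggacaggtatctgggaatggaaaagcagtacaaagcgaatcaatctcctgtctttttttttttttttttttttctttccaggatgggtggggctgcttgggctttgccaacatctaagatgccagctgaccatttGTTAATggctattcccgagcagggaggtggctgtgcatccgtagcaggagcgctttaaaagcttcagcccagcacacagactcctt
Slc6a13 (chr6:121300490-121300739, plus strand; inside the gene and in no annotated exon, before an internal start): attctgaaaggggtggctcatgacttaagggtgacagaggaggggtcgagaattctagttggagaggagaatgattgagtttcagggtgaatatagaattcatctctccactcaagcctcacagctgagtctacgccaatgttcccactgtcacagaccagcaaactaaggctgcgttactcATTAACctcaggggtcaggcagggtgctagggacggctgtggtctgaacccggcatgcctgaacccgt
Slc7a11 (chr3:50443615-50443863, minus strand; upstream of the gene): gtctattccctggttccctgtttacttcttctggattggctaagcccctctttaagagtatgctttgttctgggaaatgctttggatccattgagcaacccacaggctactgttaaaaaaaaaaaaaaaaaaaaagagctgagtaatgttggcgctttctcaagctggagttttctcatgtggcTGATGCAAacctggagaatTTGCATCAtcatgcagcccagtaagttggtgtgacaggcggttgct
The partial HNF1 element lies 86 to 81 bases before the start in Slc7a7. On the other strand, it lies 68 to 63 bases before the start in Slc6a13. In Slc7a11 the 2 ATF4 elements lie 66 to 59 and 47 to 40 bases before the start, the second on the other strand. Of the 8 members that fell in unbound RNA at day 2 (below), 6 had a matched promoter. The partial HNF1 element was in 2 of these 6. Slc6a13 also held the NRF2 element at another start, and Slc7a7 the ATF4 element at 2 other starts. The partial HNF1 element was also in Slc6a20a, which rose in bound RNA at day 2. Of the 8 that rose, 5 had a promoter, none held the ATF4 element within 250 bases, and 3 (Slc38a2, Slc7a1 and Slc7a6) held the NRF2 element. A match is a run of letters, and binding was not measured.

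Sham kidney was led by carriers of cystine, cationic and neutral amino acids. RPKM is per length, so levels can be set side by side: in sham unbound RNA the highest means were those of Slc7a13 at 268 ± 74.4 RPKM (SD, n = 3), Slc7a7 at 104 ± 19.2 RPKM and Slc6a18 at 87.4 ± 16.8 RPKM. Next came Slc7a9 at 66.8 ± 16.1, Slc6a6 at 52.1 ± 18.5 and Slc6a19 at 51.6 ± 21.9 RPKM, whose libraries overlapped each other and those of several genes below them. The lowest of the 24 members that reached a group mean of 5 RPKM was Slc1a5 in this group, at 3.48 ± 1.27 RPKM.

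At day 2 after clamping, the reabsorption carriers Slc7a13, Slc7a7, Slc7a9 and Slc3a1, of high sham level, had fallen in whole-kidney RNA. Slc6a18 and Slc6a19, also of high sham level, were not called. Slc38a2, Slc7a5, Slc7a1 and Slc1a5, carriers of growing cells, had risen in both fractions. In unbound RNA 8 of 37 tested members were higher than in sham and 8 lower (adjusted p under 0.05, limma with Benjamini-Hochberg adjustment over 13721 genes). Over all tested genes 9.76% were higher and 5.04% lower. In bound RNA 8 members were higher and 3 lower, where 13.3% and 6.48% of all genes were. These counts depend on single libraries. The 16 unbound calls became 6 without the second and 9 without the third day 2 library, and 9 without the third sham library, and 5 of the 16 held in every leave-out (Slc7a13, Slc7a12, Slc7a7, Slc38a10 and Slc7a5). The 11 bound calls became 5 without the second or the third day 2 library and 6 without the first sham library or in a fit of the bound libraries alone, and 3 held in every leave-out (Slc7a5, Slc38a6 and Slc7a6os). The median log2 fold of the members was 0.05 unbound and 0.22 bound, beside 0.20 and 0.16 for all genes. Bound and unbound libraries of a time were taken to come from the same 3 mice, a pairing that is inferred. All comparisons with sham in a fraction share its 3 sham libraries. Folds are on the log2(RPKM + 0.5) scale, which understates the change of genes of low level. In bulk RNA, fewer cells of a type and less RNA per cell cannot be told apart. The split of calls over all genes depends on scaling: 1339 were higher and 691 lower in unbound RNA (1829 and 889 in bound), and with median-ratio rescaling 1095 and 1087 (1378 and 1543), while the members split 7 to 8 and 6 to 3.

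**Figure D1:**
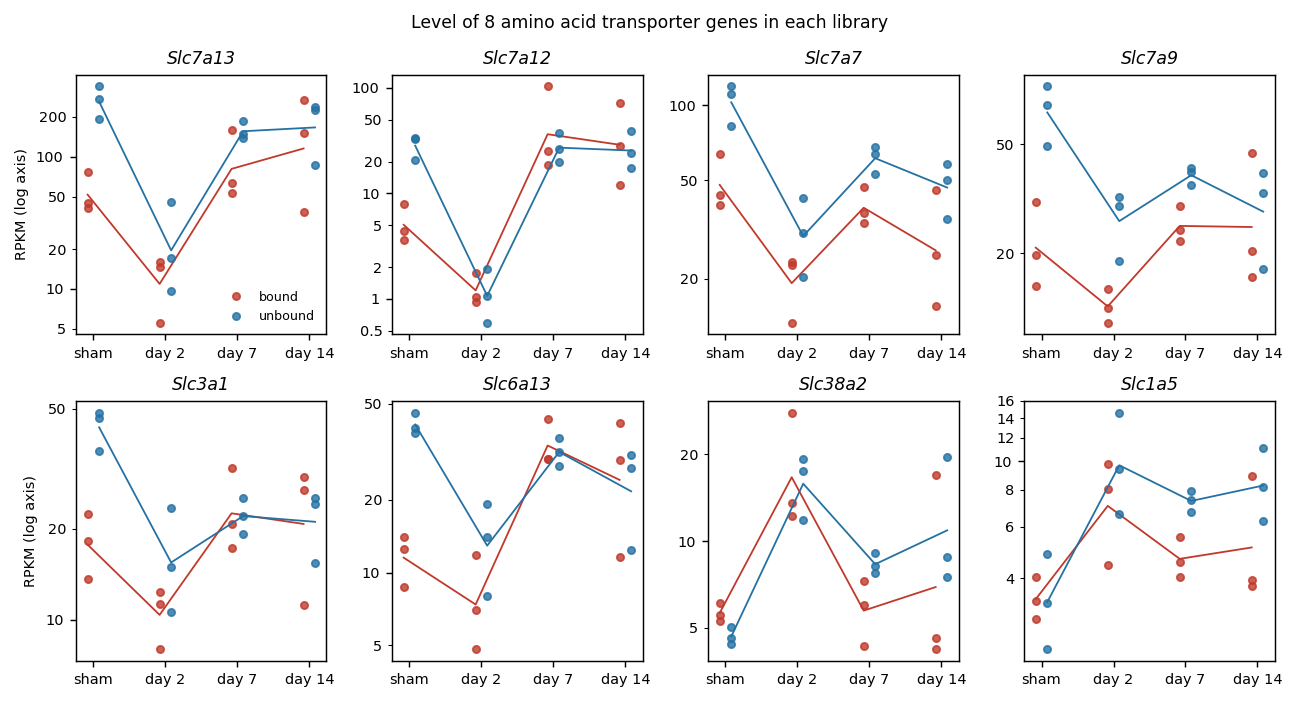
RPKM on a log axis of 8 amino acid transporter genes in every library, bound in red and unbound in blue, at sham and days 2, 7 and 14; points are libraries (3 a group) and lines join the geometric means. Slc7a13 and Slc7a12 are lowest at day 2 in both fractions, and Slc38a2 is highest there in both.

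The cystine and cationic heteromers fell in unbound RNA, all 3 of 3 tested. Slc7a13 (ENSMUSG00000041052), the light chain AGT1, which pairs with rBAT in the last segment of the proximal tubule and carries cystine with aspartate and glutamate, was at 341, 272 and 192 RPKM in the sham unbound libraries and at 45.3, 9.59 and 17.2 RPKM at day 2. Every day 2 library was below every sham library, and the fall (log2 fold -3.70, SE 0.62, adjusted p = 0.000385) passed without any 1 of the libraries. Its bound levels went from 76.0, 44.5 and 40.7 to 14.5, 5.56 and 16.1 RPKM (log2 fold -2.18, SE 0.62, adjusted p = 0.0166), again with no overlap. The bound call did not pass without the second day 2 bound library (adjusted p = 0.109) and the first sham bound library (adjusted p = 0.0758). Slc3a1 (ENSMUSG00000024131), the heavy chain rBAT, stood at 36.3, 46.5 and 48.6 RPKM in sham and 23.4, 10.6 and 14.9 RPKM at day 2 in unbound RNA (log2 fold -1.46, SE 0.33, adjusted p = 0.00554). This fall, in libraries that did not overlap, did not pass without the second day 2 unbound library (adjusted p = 0.053). Slc7a9 (ENSMUSG00000030492), the light chain b0,+AT that with rBAT takes up cystine and dibasic amino acids and whose loss causes cystinuria, was at 49.5, 81.4 and 69.4 RPKM and then at 32.1, 18.8 and 29.8 RPKM (log2 fold -1.30, SE 0.34, adjusted p = 0.0138). Its call did not pass without the second day 2 unbound library, the second sham unbound library or the third sham unbound library (adjusted p = 0.0506 to 0.0971). In bound RNA the log2 folds of Slc3a1 and Slc7a9 were -0.74, adjusted p = 0.12 and -0.69, adjusted p = 0.16, and neither passed.

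Slc7a12 (ENSMUSG00000039710), the carrier Asc-2 of small neutral amino acids, had the largest fall of the 37 members in unbound RNA. It was at 20.5, 33.9 and 32.8 RPKM in sham and at 1.93, 1.06 and 0.596 RPKM at day 2 (log2 fold -4.17, SE 0.56, adjusted p = 4.80e-05). The Slc7a12 call passed without any 1 of the libraries. Bound RNA started lower, at 3.65, 7.89 and 4.45 RPKM, and went to 1.77, 0.943 and 1.05 RPKM (log2 fold -1.70, SE 0.56, adjusted p = 0.0367). That call did not pass without the second day 2 bound library, the third day 2 bound library, the first sham bound library or the second sham bound library (adjusted p = 0.0529 to 0.141).

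At the basolateral side the exchanger light chain y+LAT1 fell in both fractions, and its heavy chain rose in bound RNA. Slc7a7 (ENSMUSG00000000958) has the first of the windows shown, before an internal start. It encodes y+LAT1, which releases cationic amino acids to the blood and whose loss causes lysinuric protein intolerance. It was at 82.6, 119 and 111 RPKM in sham unbound RNA and at 42.4, 30.6 and 20.3 RPKM at day 2 (log2 fold -1.77, SE 0.33, adjusted p = 0.0011), with no overlap. The Slc7a7 call passed without any 1 of the libraries. Its bound levels of 39.7, 63.4 and 43.3 RPKM became 22.8, 23.3 and 13.3 RPKM (log2 fold -1.29, SE 0.33, adjusted p = 0.00923). The bound fall did not pass without the third day 2 bound library (adjusted p = 0.0638) and the second sham bound library (adjusted p = 0.0512). The heavy chain gene Slc3a2, at 17.8, 18.1 and 20.0 RPKM in sham bound RNA, was at 23.3, 33.3 and 35.8 RPKM at day 2 (log2 fold 0.69, SE 0.21, adjusted p = 0.0239), every library above sham. This rise did not pass without the second day 2 bound library, the third day 2 bound library, the first sham bound library or the second sham bound library (adjusted p = 0.0627 to 0.112) and was not called after median-ratio rescaling (0.47, adjusted p = 0.124). In unbound RNA Slc3a2 went from 36.4, 40.9 and 39.3 to 44.1, 47.9 and 39.8 RPKM, a log2 fold of 0.17, adjusted p = 0.61. Slc7a6, the light chain y+LAT2 found in most tissues, was higher in unbound RNA at a low level, 1.12, 0.739 and 0.585 against 2.71, 2.30 and 2.37 RPKM (log2 fold 1.19, SE 0.38, adjusted p = 0.0392). Its call was lost whichever 1 of its 6 libraries was left out (adjusted p = 0.0533 to 0.134).

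Among the apical carriers of neutral and imino acids 1 of 4 tested fell in unbound RNA and 1 of 4 rose in bound RNA. Slc6a20b (ENSMUSG00000025243), which belongs with Slc6a20a to the proline and imino acid carriers, was at 23.6, 26.5 and 21.5 RPKM in sham and 14.7, 6.04 and 8.96 RPKM at day 2 in unbound RNA (log2 fold -1.31, SE 0.39, adjusted p = 0.0267). The call passed only without the first day 2 unbound library when 1 library was left out (adjusted p = 0.0582 to 0.165 without any other). Its close paralog Slc6a20a, at 0.734, 0.773 and 0.430 RPKM in sham bound RNA, was higher at day 2, with 1.76, 1.63 and 3.86 RPKM (log2 fold 1.28, SE 0.31, adjusted p = 0.00654). The Slc6a20a call did not pass without the third day 2 bound library (adjusted p = 0.0552) and under quantile normalization (0.89, adjusted p = 0.0693). The sources do not say how reads common to these 2 copies were counted, so their split is uncertain. Slc6a18 (B0AT3) and Slc6a19 (B0AT1), the main carriers of glycine and other neutral amino acids, did not pass at day 2 in either fraction. Unbound levels of Slc6a18 were 78.8, 107 and 76.6 RPKM in sham and 69.5, 47.7 and 119 RPKM at day 2. Its bound levels were 25.6, 33.8 and 22.2 RPKM and then 24.4, 29.1 and 102 RPKM, and the groups overlapped in both fractions. Slc6a19 was at 36.3, 76.7 and 41.9 RPKM in sham and 26.1, 15.9 and 27.0 RPKM at day 2 in unbound RNA (log2 fold -1.11, SE 0.45, adjusted p = 0.102), and the 95% interval of that log2 fold was -2.04 to -0.17.

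Slc6a13 and Slc38a10 completed the falls. Slc6a13 (ENSMUSG00000030108) encodes GAT2, a basolateral carrier of taurine and GABA, and has the second of the windows shown, before an internal start. In unbound RNA it was at 39.7, 38.0 and 46.0 RPKM in sham and 19.3, 7.97 and 14.0 RPKM at day 2 (log2 fold -1.63, SE 0.41, adjusted p = 0.0103), with no overlap. The Slc6a13 call did not pass without the second day 2 unbound library (adjusted p = 0.0841). Slc38a10 (ENSMUSG00000061306), an intracellular member of family 38, was at 14.0, 16.1 and 9.83 and then 6.01, 4.71 and 7.83 RPKM in unbound RNA (log2 fold -1.05, SE 0.24, adjusted p = 0.00485). The Slc38a10 call passed without any 1 of the libraries. In bound RNA its day 2 fold was -0.48, adjusted p = 0.161. Of the proximal tubule markers, 3 of 9 fell in unbound RNA and 3 of 9 in bound RNA, and none rose. Their sum went from 2096 to 2182 RPKM in sham unbound libraries to 575 to 1243 RPKM at day 2. The marker Slc34a1 was a large part of that sum, at 1295, 1256 and 1466 RPKM in sham and 572, 235 and 231 RPKM at day 2. Of 5 S3 segment markers, 3 fell in unbound RNA, among them Cyp7b1 (-4.94, adjusted p = 8.31e-06), and in bound RNA 1 fell and 1 rose. The part of these shifts in the falls was not tested.

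Of the 6 tested growth and stress uptake carriers, 3 rose in both fractions at day 2 and none fell. Markers of other cell types rose in the same comparisons: 2 of 5 stroma markers in each fraction (medians of 1.33 bound and 1.02 unbound on the log2 scale), and 2 of 2 tested neutrophil markers in bound and 1 of 2 in unbound RNA (3.06 and 2.98). Summed stroma markers went from 15.3 to 25.1 RPKM in sham bound libraries to 61.3 to 421 RPKM at day 2, and from 19.3 to 21.5 to 62.8 to 112 RPKM in unbound ones. Their part in the rises was not tested. Slc38a2 (ENSMUSG00000022462) encodes SNAT2, the sodium-coupled carrier of small neutral amino acids that cells raise when amino acids run short. It was at 5.04, 4.60 and 4.39 RPKM in sham unbound libraries and at 11.8, 19.2 and 17.4 RPKM at day 2 (log2 fold 1.66, SE 0.40, adjusted p = 0.00817). The Slc38a2 call did not pass without the second day 2 unbound library (adjusted p = 0.0512). In the bound libraries it went from 6.09, 5.29 and 5.56 to 13.5, 27.9 and 12.2 RPKM (log2 fold 1.48, SE 0.40, adjusted p = 0.0131), again with no overlap, and did not pass without the second day 2 bound library (adjusted p = 0.101). Slc7a5, the light chain LAT1 that imports leucine and other large neutral amino acids, rose from 0.307, 0.551 and 0.503 to 3.05, 4.27 and 2.07 RPKM unbound (log2 fold 1.89, SE 0.40, adjusted p = 0.00289). It rose from 0.576, 1.52 and 0.383 to 2.40, 4.71 and 4.59 RPKM bound (log2 fold 1.77, SE 0.40, adjusted p = 0.00377). Both rises passed without any 1 library. Slc7a1, the cationic amino acid carrier CAT1, rose from 0.612, 0.802 and 0.354 to 1.34, 2.60 and 2.11 RPKM unbound (log2 fold 1.20, SE 0.32, adjusted p = 0.0167). It rose from 0.654, 1.09 and 0.711 to 1.87, 3.01 and 2.65 RPKM bound (log2 fold 1.19, SE 0.32, adjusted p = 0.0141). The unbound call did not pass without the second day 2 unbound library, the third day 2 unbound library or the third sham unbound library (adjusted p = 0.0566 to 0.0998). The bound call did not pass without the second day 2 bound library, the third day 2 bound library or the first sham bound library (adjusted p = 0.0508 to 0.0721).

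Slc1a5 (ENSMUSG00000001918), the glutamine exchanger ASCT2, also rose in both fractions at day 2. Its unbound levels were 3.30, 4.83 and 2.31 RPKM in sham and 6.63, 9.38 and 14.6 RPKM at day 2 (log2 fold 1.41, SE 0.33, adjusted p = 0.00681). The Slc1a5 call did not pass without the third day 2 unbound library (adjusted p = 0.0505). Bound levels went from 3.34, 4.04 and 2.92 to 4.46, 8.04 and 9.77 RPKM (log2 fold 0.96, SE 0.33, adjusted p = 0.0472). It passed only without the first day 2 bound library when 1 library was left out (adjusted p = 0.0638 to 0.202 without any other) and also did not pass under either rescaling (adjusted p = 0.0789 and 0.0700). Slc38a6, a family 38 member of low level, went from 0.958, 1.36 and 1.13 to 2.19, 2.78 and 3.18 RPKM unbound (log2 fold 0.96, SE 0.27, adjusted p = 0.0191). It went from 0.308, 0.692 and 0.573 to 1.09, 2.62 and 2.13 RPKM bound (log2 fold 1.22, SE 0.27, adjusted p = 0.00319). Every day 2 library was above every sham library for the bound gene, whose call passed without any 1 of the libraries. The unbound call did not pass without the second day 2 unbound library, the third day 2 unbound library, the first sham unbound library or the third sham unbound library (adjusted p = 0.0582 to 0.0796). Slc7a6os, at 3.69, 4.55 and 5.08 RPKM in sham bound RNA and 7.76, 9.49 and 10.2 RPKM at day 2 (log2 fold 0.97, SE 0.19, adjusted p = 0.00146), passed without any 1 of the libraries. In unbound RNA Slc7a6os went from 5.91, 6.55 and 7.12 to 7.91, 9.55 and 13.2 RPKM (log2 fold 0.58, SE 0.19, adjusted p = 0.0443) and passed only without the first day 2 unbound library when 1 library was left out (adjusted p = 0.0722 to 0.221 without any other). It overlaps Slc7a6 and the counting is not stated to use strand, so reads of the 2 genes cannot be told apart. The last rise was that of Slc7a4, for which no transport is established, from 1.22, 1.10 and 1.19 to 2.55, 2.21 and 2.45 RPKM unbound (log2 fold 0.80, SE 0.23, adjusted p = 0.025). The Slc7a4 call was lost whichever 1 of its 6 libraries was left out (adjusted p = 0.0604 to 0.0746).

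**Figure D2:**
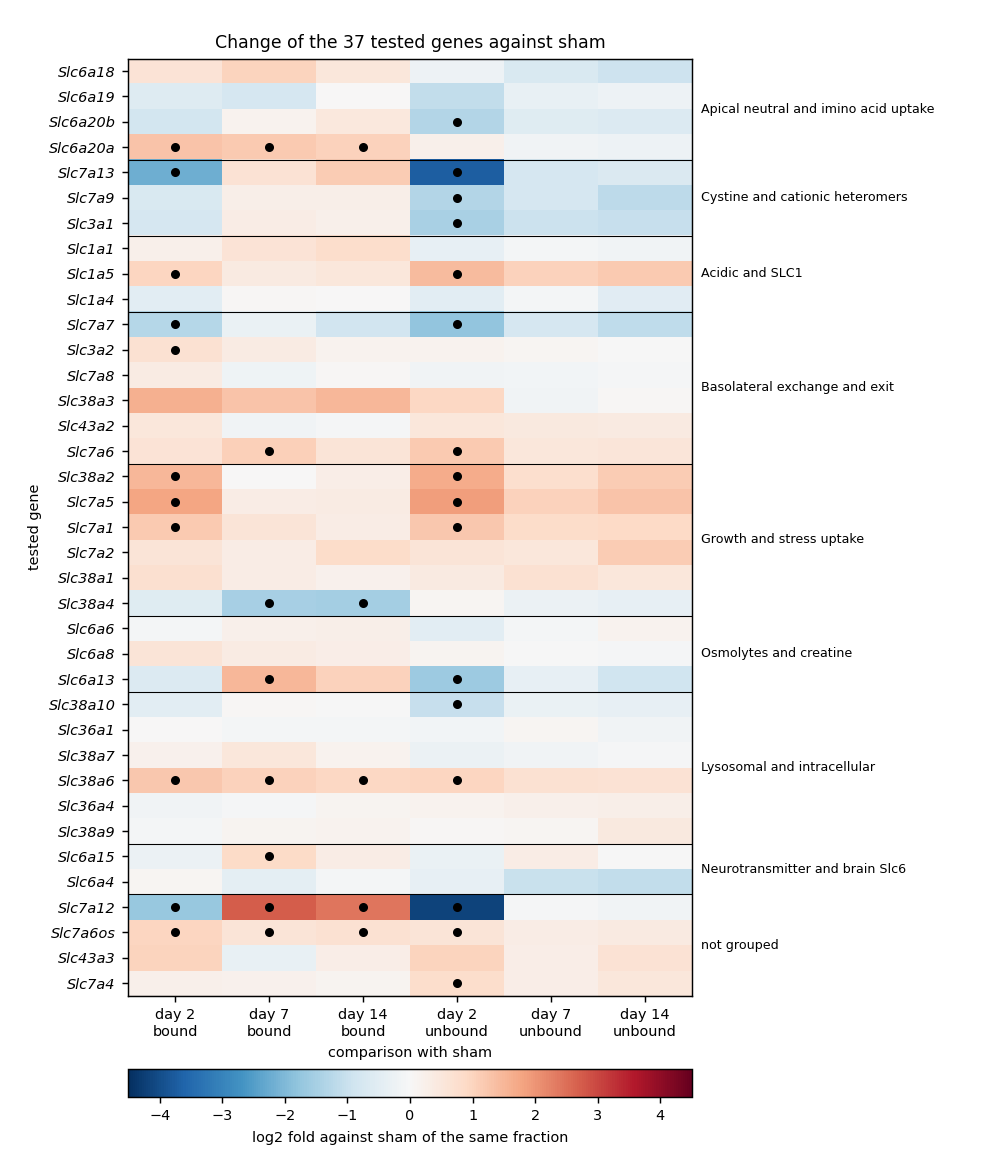
Color gives the log2 fold against sham of the same fraction for the 37 tested genes (rows, grouped by role) in 6 comparisons (columns), red higher and blue lower; a black dot marks an adjusted p under 0.05. Unbound calls stand at day 2 and not at days 7 or 14, and Slc7a12 turns from blue at day 2 to red at days 7 and 14 in bound RNA.

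Genes of the amino acid response moved in the same samples. At day 2, 13.3% of all genes were higher and 6.48% lower in bound RNA, and 9.76% and 5.04% in unbound RNA. Of 20 tested genes known to respond to ATF4, 8 rose and 1 fell in bound RNA at day 2, and 9 rose and none fell in unbound RNA, with medians of 0.86 and 0.87. The serine synthesis genes Psat1 (1.81, adjusted p = 0.000301) and Phgdh (1.87, adjusted p = 0.000725), the folate enzyme gene Mthfd2 (2.06, adjusted p = 0.000931) and Asns, which encodes asparagine synthetase (1.93, adjusted p = 0.00204), had the smallest p of the list in unbound RNA. Of 11 tested glutathione supply genes known to respond to NRF2, 6 rose in bound and 5 in unbound RNA, where 1 fell. The redox genes Srxn1 (1.93, adjusted p = 7.52e-05) and Txnrd1 (1.57, adjusted p = 5.71e-05) and the heme oxygenase gene Hmox1 (2.21, adjusted p = 0.00026) were among them. Of 11 genes of amino acid sensing and mTORC1, none passed in bound RNA, and 1 rose and 1 fell in unbound RNA. Hypertonicity genes, which NFAT5 controls together with carriers of taurine and betaine, had 1 of 6 higher in bound and 2 of 6 in unbound RNA; Slc5a3, the myo-inositol carrier, rose in both (1.27, adjusted p = 0.000746 and 0.99, adjusted p = 0.00672). Slc6a6, the taurine carrier TauT, did not pass in any comparison.

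Among 8 tested partners of these carriers, 2 fell and none rose in unbound RNA at day 2, and 1 rose in bound RNA. Of all genes, 5.04% fell in unbound RNA and 13.3% rose in bound RNA, so the bound count was near the share of all genes. Tmem27 (collectrin), which brings B0AT1 and B0AT3 to the apical membrane, fell in unbound RNA (-0.85, adjusted p = 0.0195), and the peptide carrier gene Slc15a2 fell too (-1.09, adjusted p = 0.0228). The aromatic amino acid carrier gene Slc16a10 rose in bound RNA (0.80, adjusted p = 0.0208). Of 4 androgen-linked proximal genes 2 fell in unbound RNA at day 2 and none passed in bound RNA. Injury markers were high in the same libraries, with 4 of 5 up in bound and 5 of 5 in unbound RNA.

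At days 7 and 14 no member passed the test against sham in whole-kidney RNA, while Slc7a12, Slc6a20a, Slc38a6 and Slc7a6os were called above sham in bound RNA at both times. The bound calls rest on the spread pooled over all 24 libraries: a fit of the bound libraries alone called 3 members at day 7, in place of 8, and 0 at day 14, in place of 5. Unbound calls were 0 of 37 at day 7 and 0 of 37 at day 14 by limma, with 8 and 13 members at an unadjusted p under 0.05.  A missing call does not show that levels were back at those of sham. Slc3a1 was at 24.2, 25.3 and 15.4 RPKM at day 14 in unbound RNA (-1.02, adjusted p = 0.11), below all 3 sham libraries, and Slc38a2 at 8.81, 7.53 and 19.5 RPKM (1.15, adjusted p = 0.129), above all 3. In a fit of the unbound libraries alone 6 members passed at day 14, and 1 passed without the second day 14 unbound library. Over all genes 0.911% were higher and 0.182% lower at day 7, and 0.984% and 0.248% at day 14. In bound RNA 7 of 37 members were higher and 1 lower at day 7, where 15.2% and 7.55% of all genes were. At day 14 bound calls were 4 of 37 higher and 1 lower, beside 8.71% and 4.58% of all genes. The shares of members called in bound RNA were thus near those of all genes at both times. Day 7 bound calls fell to 5 without the first or second library of either group. Day 14 bound calls became 2 without the first sham or first day 14 library, 3 without the second sham library and 9 without the third day 14 library. Median log2 folds of the members were 0.33 at day 7 and 0.29 at day 14 in bound RNA, against 0.13 and 0.18 for all genes.

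Slc7a12 had the largest rise. In bound RNA it stood at 103, 18.5 and 25.1 RPKM at day 7 and 71.4, 27.9 and 12.1 RPKM at day 14, every library above the 3 of sham, which were at 3.65, 7.89 and 4.45 RPKM. The day 7 difference (log2 fold 2.73, SE 0.56, adjusted p = 0.00219) passed without any 1 of the libraries. The day 14 difference (log2 fold 2.41, SE 0.56, adjusted p = 0.00956) did not pass without the first day 14 bound library (adjusted p = 0.0619). In unbound RNA the levels of 37.6, 20.0 and 26.6 RPKM at day 7 and 24.3, 38.9 and 17.5 RPKM at day 14 overlapped those of sham (-0.06, adjusted p = 0.97 and -0.15, adjusted p = 0.901).

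Slc6a13 was also above sham in bound RNA at day 7, with 14.0, 12.5 and 8.71 RPKM in sham and 43.4, 29.6 and 29.6 RPKM at day 7 (log2 fold 1.50, SE 0.41, adjusted p = 0.0121). This call did not pass without the first day 7 bound library (adjusted p = 0.0541). At day 14 its bound libraries were at 41.8, 29.3 and 11.6 RPKM (log2 fold 1.04, SE 0.41, adjusted p = 0.09), the third within the sham range. Slc6a20a kept to low levels, 2.39, 1.54 and 2.30 RPKM at day 7 (log2 fold 1.17, SE 0.31, adjusted p = 0.011) and 1.37, 2.51 and 1.68 RPKM at day 14 (log2 fold 1.02, SE 0.31, adjusted p = 0.0347), above all sham bound libraries at both times. Its day 7 call passed without any 1 of the libraries and did not pass under quantile normalization (0.89, adjusted p = 0.0661). Its day 14 call passed only without the third day 14 bound library when 1 library was left out (adjusted p = 0.0507 to 0.122 without any other). Slc6a15, a carrier of branched-chain amino acids best known from brain, went from 3.56, 2.22 and 2.63 RPKM in sham to 4.58, 6.42 and 5.60 RPKM at day 7 in bound RNA (log2 fold 0.88, SE 0.23, adjusted p = 0.0109). The Slc6a15 call did not pass without the second day 7 bound library (adjusted p = 0.0542) and the second sham bound library (adjusted p = 0.0568).

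Slc38a6 remained above sham in bound RNA, at 1.87, 1.29 and 1.58 RPKM on day 7 (log2 fold 1.03, SE 0.27, adjusted p = 0.00935) and 0.895, 1.57 and 1.97 RPKM on day 14 (log2 fold 0.93, SE 0.27, adjusted p = 0.0263). The day 7 call did not pass without the first sham bound library (adjusted p = 0.0529). The Slc38a6 call at day 14 did not pass without the second day 14 bound library, the third day 14 bound library or the first sham bound library (adjusted p = 0.0686 to 0.114). Slc7a6os was at 6.51, 7.45 and 6.75 and 8.91, 6.87 and 6.58 RPKM (log2 fold 0.59, SE 0.19, adjusted p = 0.0305; log2 fold 0.69, SE 0.19, adjusted p = 0.0231). At day 7 it passed only without the third sham bound library when 1 library was left out (adjusted p = 0.0557 to 0.132 without any other). At day 14 it did not pass without the first day 14 bound library, the first sham bound library or the second sham bound library (adjusted p = 0.0543 to 0.107). Slc7a6 was at 0.561, 0.358 and 1.62 RPKM in sham and 2.77, 2.07 and 1.61 RPKM at day 7 in bound RNA, groups that overlapped (log2 fold 1.07, SE 0.38, adjusted p = 0.0473). The Slc7a6 call passed only without the third sham bound library when 1 library was left out (adjusted p = 0.0635 to 0.198 without any other).

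The fall in bound RNA at days 7 and 14 was that of Slc38a4, which encodes SNAT4, a carrier of small neutral amino acids. It was at 0.794, 0.817 and 2.06 RPKM in sham, 0.0742, 0.0380 and 0.130 RPKM at day 7 and 0, 0.0723 and 0.147 RPKM at day 14 (log2 fold -1.50, SE 0.29, adjusted p = 0.00167; log2 fold -1.52, SE 0.29, adjusted p = 0.00336). Every library of both times was below every sham library, and both falls passed without any 1 library. These levels are low, and in unbound RNA the gene was at 0.642, 1.07 and 0.836 RPKM in sham and 0.706, 0.615 and 0.315 RPKM at day 14.

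Of the proximal tubule markers in bound RNA, 0 of 9 were called higher at day 7 (1 lower) and 0 of 9 at day 14 (none lower), by limma. Their median log2 folds were -0.07 and 0.25. Their sums were 893 to 1064 RPKM at day 7 and 675 to 1974 RPKM at day 14, against 860 to 1111 RPKM in sham. Of the 5 S3 segment markers 1 was higher at each time and none lower, with medians of 0.68 and 1.23 on the log2 scale. Injured tubule markers were higher, 4 of 5 at both times. Podocyte markers fell, 4 of 4 at day 7 and 1 of 4 at day 14, as did principal cell markers, 4 of 5 and 1 of 5. Macrophage markers rose, 4 of 6 and 2 of 6. The part of these shifts in the members' changes was not tested. Of the partners, Tmem27 rose in bound RNA at day 14 (1.19, adjusted p = 0.00372).

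The third day 14 mouse bears on the day 14 values of most of these genes. For Slc7a13 the day 14 bound libraries were at 268, 150.1 and 38.2 RPKM and the unbound ones at 236, 226 and 86.7 RPKM, the third mouse lowest in both. For Slc38a2 they were at 4.23, 4.63 and 17.0 and 8.81, 7.53 and 19.5 RPKM, the third mouse highest in both. Without that mouse, a comparison added after seeing the data, 8 members were higher than sham in bound RNA and 1 lower, against 11.0% and 9.77% of all genes. Called then and not with all libraries were Slc7a13 (1.95, adjusted p = 0.0169), Slc6a13 (1.56, adjusted p = 0.0041), Slc1a1, the apical glutamate and aspartate carrier (1.27, adjusted p = 0.00231), Slc38a3, the glutamine carrier SNAT3 (2.38, adjusted p = 0.0194), and Slc6a20b (1.08, adjusted p = 0.0124). Slc7a12 (3.02, adjusted p = 0.00153) and Slc38a4 (-1.61, adjusted p = 0.0021) stayed called, and Slc38a6 did not (0.75, adjusted p = 0.0664).

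Between day 2 and day 14 the 2 members that had fallen furthest, Slc7a12 and Slc7a13, rose. The day 2 libraries are those in which their falls were seen, so the rise is not independent of the falls. Slc7a12 was higher at day 14 than at day 2 in bound (log2 fold 4.11, SE 0.56, adjusted p = 0.000109) and unbound RNA (log2 fold 4.02, SE 0.56, adjusted p = 0.000198). So was Slc7a13 (log2 fold 3.34, SE 0.62, adjusted p = 0.0016; log2 fold 3.05, SE 0.62, adjusted p = 0.00446). All 4 of these calls passed without any 1 library. Markers of the S3 segment rose in the same comparisons, 3 of 5 in bound RNA (median 1.86) and 2 of 5 in unbound RNA (1.37), as did 1 of 9 proximal tubule markers in each and 2 of 4 androgen-linked genes in bound RNA (1.93). Their part in the return was not tested. In bound RNA Slc6a13 (1.65, adjusted p = 0.0153) and Slc6a20b (1.31, adjusted p = 0.045) were higher too, with 4 of 37 members in all against 3.24% of all genes. Slc7a5 (-1.40, adjusted p = 0.0376) and Slc38a4 (-0.99, adjusted p = 0.0468) were lower, 2 of 37 against 3.4%. Of these, Slc6a13 did not pass without the first day 14 bound library, the second day 14 bound library or the second day 2 bound library (adjusted p = 0.0756 to 0.118). Slc6a20b passed only without the third day 14 bound library when 1 library was left out (adjusted p = 0.0581 to 0.227 without any other). Slc7a5 did not pass without the first day 14 bound library, the second day 14 bound library, the second day 2 bound library or the third day 2 bound library (adjusted p = 0.0919 to 0.197). Slc38a4 did not pass without the first day 14 bound library, the second day 14 bound library, the second day 2 bound library or the third day 2 bound library (adjusted p = 0.116 to 0.208). In unbound RNA 2 were higher and none lower, beside 2.19% and 2.76% of all genes. Without the third day 14 mouse 7 were higher and 6 lower in bound RNA (6.38% and 10.9% of all genes) and 3 higher in unbound RNA (3.22%), and Slc38a2 was then lower at day 14 than at day 2 in bound RNA (-1.80, adjusted p = 0.000233).

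In sham kidney the reabsorption carriers were lower in bound than in unbound RNA. Of 37 members 16 were lower and none higher. Of all 13721 genes 1775 (12.9%) were lower and 2008 higher. With the mouse as a block 21 members were lower, where 18.3% of all genes were (the 16 with Slc38a3, Slc6a8, Slc1a4, Slc6a19 and Slc38a6). All 3 cystine and cationic heteromers and 3 of 4 apical neutral carriers were among the 16. Slc7a12 had the largest difference in log2 terms (log2 fold -2.38, SE 0.56, adjusted p = 0.00388), from the levels given above, and Slc7a13 the next (log2 fold -2.32, SE 0.62, adjusted p = 0.00828). Slc6a18 was at 25.6, 33.8 and 22.2 RPKM bound and 78.8, 107 and 76.6 RPKM unbound (log2 fold -1.67, SE 0.48, adjusted p = 0.0128). The Slc6a18 call did not pass without the second sham unbound library (adjusted p = 0.0532). Slc1a1 was at 9.14, 8.04 and 6.65 and 21.7, 27.0 and 16.7 RPKM (log2 fold -1.39, SE 0.33, adjusted p = 0.00412), lower in each of the 3 mice. Slc7a8 (LAT2), the basolateral exchanger of neutral amino acids, was at 14.3, 14.2 and 14.7 and 29.8, 31.4 and 36.2 RPKM (log2 fold -1.14, SE 0.25, adjusted p = 0.00221), with no overlap.

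The other members lower in sham bound RNA were Slc7a9 (-1.62), Slc6a13 (-1.79), Slc6a20a (-1.83), Slc6a20b (-1.46), Slc3a1 (-1.27), Slc3a2 (-1.04), Slc7a7 (-1.10), Slc6a15 (-0.86), Slc6a4 (-1.26), Slc38a7 (-0.60) and Slc7a6os (-0.52), as log2 differences. All were lower in each of 3 mice. Slc7a7 did not pass without the first sham bound library, the second sham unbound library or the third sham unbound library (adjusted p = 0.0549 to 0.0703). Slc6a15 did not pass without the second sham bound library (adjusted p = 0.0507) and the first sham unbound library (adjusted p = 0.0706). Slc6a4 did not pass without the second sham unbound library (adjusted p = 0.0592). Slc38a7 passed only without the third sham bound library when 1 library was left out (adjusted p = 0.0716 to 0.154 without any other), and Slc7a6os passed only without the third sham bound library when 1 library was left out (adjusted p = 0.0673 to 0.185 without any other). The growth carriers Slc38a2, Slc7a5 and Slc7a1 did not pass (0.25, adjusted p = 0.701, 0.39, adjusted p = 0.509 and 0.28, adjusted p = 0.568). The 16 calls stand beside the lower proximal tubule markers of the sham bound libraries (6 of 9) and the higher podocyte and principal cell markers, whose part was not tested.

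After injury fewer members passed the test between the fractions, and so did fewer of all genes. Called in either direction were 3783 of 13721 genes in sham, and 230, 323 and 112 at days 2, 7 and 14. At day 2 none of 37 passed by limma (10 at an unadjusted p under 0.05; 1.68% of all genes), at day 7 Slc7a8 alone was lower (2.35%), and at day 14 none passed (5 at an unadjusted p under 0.05; 0.816%). With the mouse as a block the members called were 7, 8 and 2, beside 9.5%, 11.4% and 2.62% of all genes. At day 2 these were Slc7a9 (-1.01, SE 0.22, adjusted p = 0.0167), Slc6a20b, Slc6a15, Slc1a1, Slc6a20a and Slc7a8, with bound minus unbound values of -1.01 to -0.64 on the log2 scale, and Slc38a10, higher by 0.52. At day 7 they were Slc6a19 (-1.49, SE 0.23, adjusted p = 0.0018), Slc7a8, Slc43a3, Slc6a20b, Slc3a2, Slc43a2, Slc1a1 and Slc1a5, all lower. Slc7a8 was at 11.5, 15.7 and 11.0 RPKM bound and 30.3, 31.6 and 28.1 RPKM unbound at day 7 (log2 fold -1.22, SE 0.25, adjusted p = 0.0106). The Slc7a8 call did not pass without the third day 7 bound library (adjusted p = 0.0715) and the second day 7 unbound library (adjusted p = 0.0648). At day 14 the 2 called with the block were Slc7a8 (-1.03, SE 0.18, adjusted p = 0.00931) and Slc3a2 (-0.85, SE 0.20, adjusted p = 0.0361), both lower in bound RNA in each of 3 mice.

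**Figure D3:**
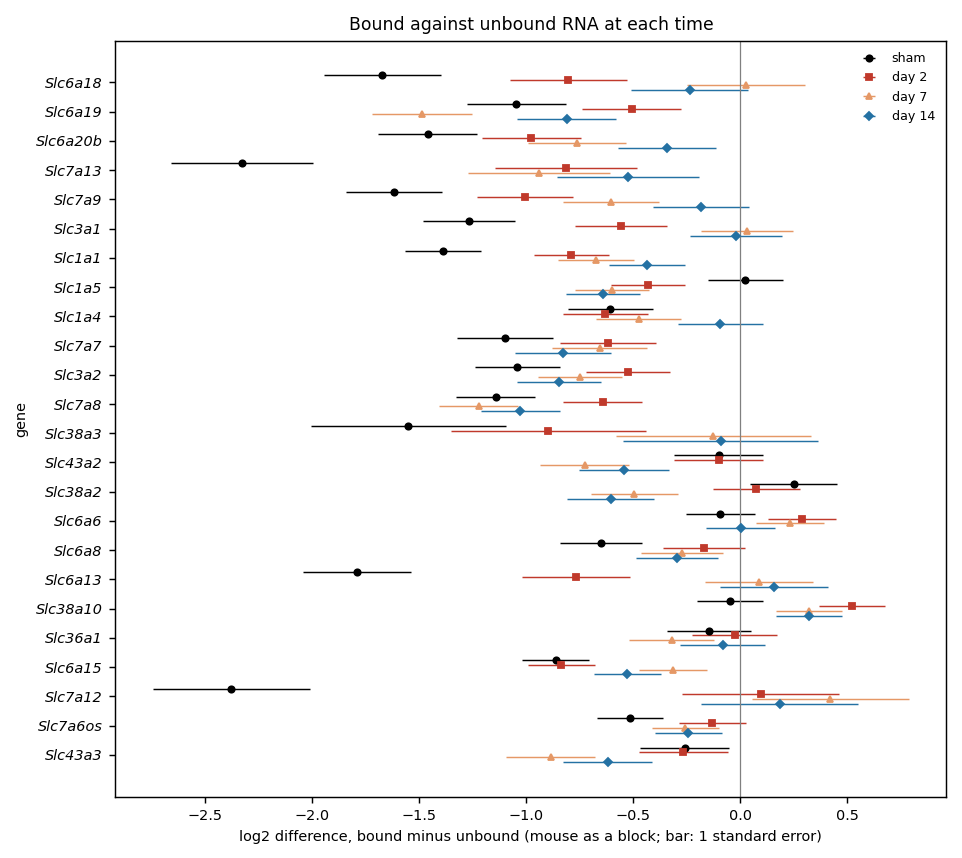
Log2 difference of bound from unbound RNA for the 24 genes that reached 5 RPKM, at sham (black), day 2 (red), day 7 (orange) and day 14 (blue), from the fit with the mouse as a block; bars are 1 standard error. Slc7a13, Slc7a12, Slc6a13 and Slc6a18 lie farthest below 0 in sham and nearer to 0 at day 14, while Slc7a8 lies between -1.22 and -0.64 at all 4 times.

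Whether the change after injury differed between the fractions was tested as an interaction. By the fit over all 24 libraries no member passed at any time, with 2, 8 and 8 at an unadjusted p under 0.05 at days 2, 7 and 14, and 0.0%, 0.146% and 0.197% of all genes were called. With the mouse as a block the members called were 0, 5 and 8, beside 0.0%, 5.26% and 6.28% of all genes. At day 7 these were Slc7a12 (2.80, SE 0.52, adjusted p = 0.0223), Slc6a13 (1.88, SE 0.36, adjusted p = 0.0223), Slc6a18 (1.70, SE 0.39, adjusted p = 0.0311), Slc6a20a (1.32, SE 0.24, adjusted p = 0.0223) and Slc3a1 (1.30, SE 0.30, adjusted p = 0.0345). Each value is the log2 change in bound minus that in unbound RNA, so all 5 had changed more upward, or less downward, in bound RNA. At day 14 the same 5 genes were joined by Slc7a13 (1.80, SE 0.47, adjusted p = 0.0408), Slc7a9 (1.44, SE 0.32, adjusted p = 0.0252) and Slc1a1 (0.95, SE 0.25, adjusted p = 0.0415). Without the third day 14 mouse, in the fit with no block, Slc7a12 (2.91, adjusted p = 0.0397) and Slc6a13 (2.07, adjusted p = 0.0217) passed, beside 5.04% of all genes. Slc6a18 gives an example in levels: its bound libraries went from 25.6, 33.8 and 22.2 RPKM in sham to 68.4, 44.2 and 51.8 RPKM at day 7, and its unbound libraries from 78.8, 107 and 76.6 to 41.5, 59.0 and 60.4 RPKM. These comparisons share the sham libraries, whose bound and unbound marker levels differ as given above.

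**Figure D4:**
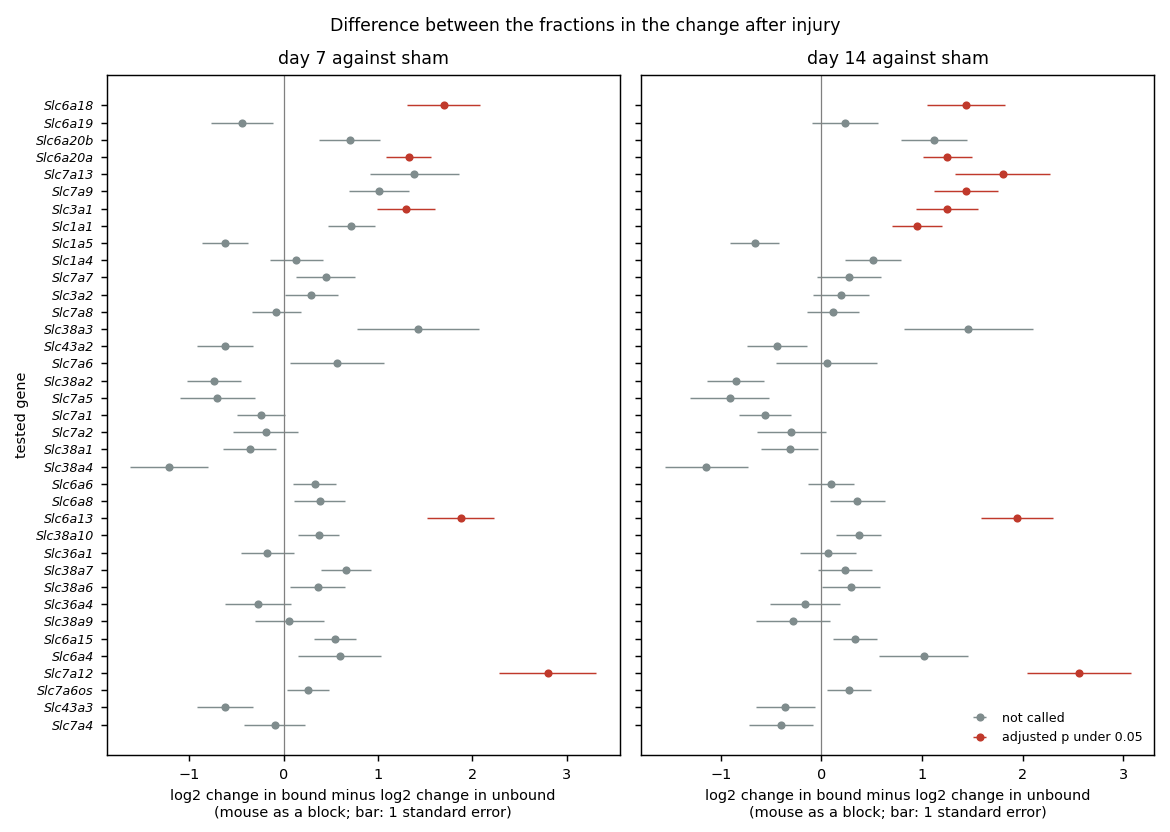
Difference between the fractions in the log2 change against sham at day 7 (left) and day 14 (right) for the 37 tested genes, from the fit with the mouse as a block; bars are 1 standard error and red points have an adjusted p under 0.05. The 5 red genes at day 7 and the 8 at day 14 all lie above 0.

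The 8 members that reached 5 RPKM and passed in no comparison by the fit over all libraries were Slc6a6, Slc6a19, Slc6a8, Slc38a3, Slc43a2, Slc43a3, Slc36a1 and Slc1a4. The taurine carrier gene Slc6a6 ranged over its 24 libraries from 31.4 to 74.3 RPKM and the creatine carrier gene Slc6a8 from 17.6 to 51.6 RPKM. Slc6a19 ranged from 9.43 to 76.7 RPKM and Slc1a4, the neutral exchanger ASCT1, from 2.39 to 11.6 RPKM. Slc38a3, a basolateral glutamine carrier known to rise in acidosis, varied between libraries: its bound levels were 2.85, 4.10 and 2.47 RPKM in sham and at 7.92, 4.29 and 30.1 RPKM at day 2, and a log2 fold of 1.58, adjusted p = 0.117, with a 95% interval of 0.12 to 3.05, did not pass. Slc43a3, which carries purine bases, had a bound day 2 fold of 0.99, adjusted p = 0.0565. The leucine carrier gene Slc43a2 ranged from 5.21 to 21.3 RPKM, and Slc36a1, the lysosomal carrier PAT1, from 4.37 to 10.6 RPKM.

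The other 13 tested members stayed under 5 RPKM in every group mean, and 9 of them were called somewhere: Slc6a20a, Slc7a5, Slc38a6, Slc7a1, Slc7a6, Slc7a4, Slc38a4, Slc6a4 and Slc38a7. The lysosomal arginine sensor gene Slc38a9 ranged from 0.726 to 2.01 RPKM and passed nowhere, as did Slc36a4, Slc7a2 and Slc38a1. The serotonin carrier gene Slc6a4 was at 2.35, 3.36 and 1.48 RPKM in sham unbound RNA and at 0.984, 0.814 and 0.844 RPKM at day 7 (log2 fold -1.02, SE 0.34, adjusted p = 0.154), which did not pass.

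The 26 members that were not tested had no group mean above 1.50 RPKM, the value of the betaine carrier gene Slc6a12 in sham bound RNA. Among them were Slc6a12, Slc36a2, Slc6a17, Slc1a2, Slc6a9, Slc43a1, Slc7a11, Slc1a3, Slc1a6, Slc36a3, Slc7a3, Slc6a14, Slc1a7, Slc38a11, Slc38a8, Slc38a5, Slc6a7, Slc7a15, Slc6a2, Slc7a10, Slc6a3, Slc6a5, Slc6a21, Slc7a14 and Slc6a11. Slc6a11 was listed at 0 in all 24 libraries. Slc7a11, singled out after its values were seen because of its promoter, ranged from 0 to 0.950 RPKM. Its sham libraries were at 0, 0.00383 and 0 RPKM bound and 0.0138, 0 and 0.00947 RPKM unbound, and its day 2 libraries at 0.201, 0.417 and 0.811 and 0.0781, 0.407 and 0.950 RPKM, above sham in all 6 but too low for a test.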

How the data were processed

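Ribosome-bound and unbound RNA of mouse kidney was sequenced with a low-input kit, per the labels' protocols. The authors deposited 1 table of RPKM values for all 24 libraries; per the submitters' processing notes it was made with STAR 2.0.4b, featureCounts 1.4.5 and edgeR. The genome build, gene annotation and use of strand in counting are not given in the sources used here, so no gene coordinates are printed from the table. Of 41831 lines, 1081 repeated a gene with identical values and were dropped. The values are not counts. Depth was inferred from the size of 1 read in low values: 73.8 to 78.1% of values up to 50 reads were whole within 0.02 reads, which was too few to recover counts.

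The values were tested as log2(RPKM + 0.5) with limma 3.58.1 (R 4.3.3), with 8 group means over 24 libraries, a trended prior and Benjamini-Hochberg adjustment over the 13721 genes that reached 1 RPKM in 3 or more libraries, at an adjusted p under 0.05, in 15 comparisons. The script was tested on simulated data with seeded changes, whose mean sizes it recovered; it called a larger share of the larger changes than of the smaller ones. The labels do not state that a number marks 1 mouse. Bound and unbound libraries of the same number had deviations from their group means that correlated at r = 0.268 to 0.67 within each time. They were therefore taken as 1 mouse, and comparisons between fractions were also fitted with the mouse as a block. That block rests on this inferred pairing. Alternatives were pseudocounts of 0.1 and 1, no filter, median-ratio and quantile rescaling, the libraries of 1 fraction, a replicate block and leaving out each library; leaving out the third day 14 mouse was added after seeing the data.

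Members and lists were chosen with earlier results of these data known. Called members with a group mean of at least 5 RPKM are given by library; of lower ones, up to 6 by smallest p, with Slc7a6, Slc7a4, Slc38a7 and Slc7a11 added after their values were seen; the rest by range or name. Some genes of the families and lists are counted but not reported here by name. List genes named are among the 4 of smallest p. The labels call the 3 samples of a group biological replicates.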

Additional observations from a re-analysis of the deposited data

Results flagged for a closer look

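A differing response of the 2 fractions to injury was found in 5 of 37 members at day 7 and 8 at day 14, beside 5.26% and 6.28% of all genes. Each value is the log2 change against sham in bound RNA minus that in unbound RNA, tested as an interaction by limma with the mouse as a block, adjusted over all genes. At day 7 it was 2.80 for Slc7a12, 1.88 for Slc6a13, 1.70 for Slc6a18, 1.32 for Slc6a20a and 1.30 for Slc3a1. At day 14 it was 2.56 for Slc7a12, 1.94 for Slc6a13, 1.80 for Slc7a13, 1.44 for Slc7a9, 1.43 for Slc6a18, 1.25 for Slc3a1, 1.25 for Slc6a20a and 0.95 for Slc1a1. All 13 are above 0, and none passed in the fit of all libraries with no block; in that fit 9 members passed at day 14 without the third day 14 bound library. All 8 genes were lower in bound than in unbound RNA in the sham mice, whose bound libraries also held less proximal tubule and more podocyte signal than the unbound ones. The part of that sham difference in these values was not tested.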

How the results depend on the processing

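No named result reversed its direction under any alternative run. Of 103 named results, the call was as reported in 102 with a pseudocount of 0.1, 97 with a pseudocount of 1, 92 with no filter, 95 after median-ratio rescaling, 87 after quantile normalization and 45 with the replicate block, and in 29 of 52 with the libraries of 1 fraction. The counts of members called that moved by over 1.5 times follow, by setting. With the replicate block, calls were 6 (11 as reported) for day 2 bound, 2 (8) for day 7 bound, 0 (5) for day 14 bound, 3 (0) for day 14 unbound and 2 (6) for day 14 against day 2 in bound RNA. The labels tie these numbers to no shared litter, batch or day, and in no comparison of 2 times did all 3 same-numbered pairs correlate above 0.1. Some did, as for sham and day 2 bound libraries (0.256, 0.057 and 0.342), and so did all 3 between day 7 and day 14 bound libraries (0.135, 0.166 and 0.145), which were not compared. With the mouse as the replicate block, bound against unbound gave 7 (0) at day 2, 8 (1) at day 7 and 2 (0) at day 14, and the fraction difference of the change 5 (0) at day 7 and 8 (0) at day 14. With the libraries of 1 fraction, calls were 6 for day 2 bound, 3 for day 7 bound, 0 for day 14 bound, 6 for day 14 unbound and 2 for day 14 against day 2 in bound RNA. After quantile normalization they were 5 for day 7 bound, 2 for day 14 bound, 1 for day 14 unbound, and 2 each for bound against unbound at days 7 and 14. Day 14 bound gave 3 with no filter and 3 after median-ratio rescaling, and bound against unbound at day 7 gave 2 with a pseudocount of 0.1. Without the third day 14 mouse, calls were 9 for day 14 bound, 13 and 3 for day 14 against day 2 in bound and unbound RNA, and 2 for the fraction difference at day 14. Leaving out 1 library at a time gave, for bound RNA against sham, 5 to 12 at day 2, 5 to 9 at day 7 and 2 to 9 at day 14. For unbound RNA it gave 6 to 14, 0 to 0 and 0 to 1. Day 14 against day 2 ranged from 2 to 12 bound and 2 to 2 unbound. Bound against unbound ranged from 11 to 16 in sham, 0 to 3 at day 2, 0 to 1 at day 7 and 0 to 2 at day 14, and the fraction difference from 0 to 0, 0 to 0 and 0 to 9 at days 2, 7 and 14. The cause of these shifts was not tested. With 3 libraries a group and no counts, precision rests on the spread between libraries, and a call lost without 1 library is also a test on fewer libraries. Members under the filter of 1 RPKM were not tested.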

Other observations

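Of 8 tested partners of these carriers, 1 rose at day 2 in bound RNA, 2 rose and 1 fell at day 7, and 4 rose at day 14 (limma, adjusted p under 0.05). Over all genes 13.3% were higher at day 2, 15.2% higher and 7.55% lower at day 7, and 8.71% higher at day 14. Day 14 was also tested against day 2 in bound RNA, where 2 of the 8 were higher and none lower, beside 3.24% and 3.4% of all genes. Day 7 was not tested against the other days. Slc9a3r1, a scaffold of apical membrane proteins, was higher by 1.34 on the log2 scale at day 7 and by 0.80 at day 14, and the peptide carrier gene Slc15a2 by 1.02 at day 14. Sgk1, a kinase that raises the activity of several transporters, was lower at day 7 (-1.86). Of 20 amino acid response genes, 3 were higher and 1 lower in bound RNA at day 7, and 2 higher and 1 lower at day 14. Of 11 tested glutathione supply genes, 2 were higher at day 7 and 1 at day 14, and none was lower. The higher counts of both lists were near the shares of all genes given above. Atf3 (3.11 at day 7, 2.29 at day 14) and Cebpb (1.42 and 1.43), both transcription factors, remained above sham in bound RNA. Shmt2, a mitochondrial serine enzyme, was below it (-1.71 and -1.34). Gclm, a subunit of the enzyme that starts glutathione synthesis, was above sham at both times (1.48 and 1.21). Of the 4 androgen-linked genes, 1 rose and 1 fell at day 7 (median 0.07), and 1 rose and none fell at day 14 (median 0.62). The gene that rose at both times was Kap (2.09 and 2.62). The comparisons with sham share the sham bound libraries, and those at day 14 include the third mouse.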
